A study of Danio rerio with 32 samples.

Results

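The sites of A-to-I RNA editing were compared between zebrafish embryos at 3.5 h post fertilization (hpf) and at 5.3 hpf, across the period in which the zygotic genome takes over from maternal RNA. Every line of the editing lists of these stages was used, 24976 at 3.5 hpf and 25852 at 5.3 hpf, which together named 37890 different sites of the 44007 in the lists of all 3 stages studied. A site was the same in both lists when its chromosome, position and base change were the same. Each list came from 1 RNA library made from a pool of 20 whole embryos of the wild-type ABTL background, the offspring of 1 female and 1 male whose fin DNA was sequenced to tell editing from inherited variants. The RNA was depleted of ribosomal RNA and not selected for poly(A) tails, and no embryo of this comparison was injected. Each line gave the position in the GRCz10 assembly, the change from genome to RNA and the editing frequency, which is how large a fraction of the RNA reads carried the new base. Frequencies began at 20%, and the number of reads behind a frequency is unknown.

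Adenosine deaminases acting on RNA (ADARs) turn adenosine into inosine within double-stranded stretches of RNA. Inosine is read as guanosine in sequencing, so an edited site appears as A>G, or as T>C when the transcript comes from the other strand. Until the zygotic genome is switched on at the mid-blastula transition, the embryo runs on RNA that the mother loaded into the egg, and this RNA is degraded as zygotic transcripts take over. The earlier pool stood at this transition and the later one had entered epiboly. A list of editing sites therefore depends on which transcripts are present as well as on how strongly each is edited, and these lists do not separate the 2. A>G and T>C sites were counted together as editing, and the 10 other changes, measured in the same way, served as the background. With 1 library for each stage there was no spread between replicates and no test was possible. The 95% Wilson intervals on shares cover counting error only, and neighbouring sites share reads and transcripts, so they are not independent of one another.

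Most editing sites seen at the earlier stage were seen again, but a large part of each list was absent from the other. Of the 19108 A>G or T>C sites of 3.5 hpf, 10326 were listed again at 5.3 hpf, which is 54.0% (interval 53.3% to 54.7%). These shared sites made up 60.2% (59.5% to 60.9%) of the 17151 sites of 5.3 hpf. The sites listed at 3.5 hpf and not at 5.3 hpf numbered 8782, and 6825 were listed at 5.3 hpf and not at 3.5 hpf. Between the earlier stages the share was higher, as 73.0% (72.4% to 73.7%) of the A>G or T>C sites of 1.5 hpf were listed again at 3.5 hpf. The background was higher between these stages too, with 60.8% (59.6% to 62.1%) of 5797 sites with another change listed again. For the other changes, 44.5% (43.2% to 45.8%) of 5868 sites of 3.5 hpf were listed again at 5.3 hpf, and these made up 30% (29.1% to 31.0%) of the 8701 sites at that stage. The number of sites with another change was thus 1.48 times as high at 5.3 hpf, whereas that of A>G or T>C sites was 0.898 times as high.

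Over the whole lists, both forms of the editing mismatch were less numerous at 5.3 hpf, and every other change was more numerous. This contrast was not the same inside and outside the 3′-UTR windows described below. Outside them the ratio of A>G or T>C sites was 0.990. Inside them the other changes were fewer at 5.3 hpf too, with 645 and 557 sites. A>G sites numbered 8970 at 3.5 hpf and 8222 at 5.3 hpf, a ratio of 0.917. T>C sites numbered 10138 and 8929, a ratio of 0.881. Among the other changes the ratio was highest for C>T, with 704 and 1246 sites (1.77), followed by G>A with 775 and 1264 (1.63). It was lowest for C>G, with 319 and 414 sites (1.30). The share of 3.5 hpf sites listed again was 53.8% for A>G and 54.3% for T>C, and among the other changes it ran from 38.0% for T>A to 50.8% for C>G.

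The earliest list placed the sites in time. Of the sites in both lists, 89.4% (88.8% to 90.0%) had already been listed at 1.5 hpf, a stage that precedes the switch. The same held for 56.5% (55.5% to 57.6%) of the sites listed at 3.5 hpf and not at 5.3 hpf. Among sites listed at 5.3 hpf and not at 3.5 hpf it was 14.9% (14.1% to 15.8%). For the other changes these shares were 81.9%, 42.6% and 6.14% in the same order. Of the 3.5 hpf sites without a counterpart, 46.5% (45.5% to 47.6%) had some site of 5.3 hpf within 50 bp, whether shared or new. Of the 5.3 hpf sites without a counterpart, 33.3% (32.2% to 34.4%) had a site of 3.5 hpf within 50 bp. For the other changes these shares were 17.7% and 8.0%.

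Editing frequency went with whether a site was in both lists. The median frequency of shared sites was 44.1% at 3.5 hpf and 40.7% at 5.3 hpf. It was 30.4% for the sites listed at 3.5 hpf only and 28.9% for those listed at 5.3 hpf only. In the bin from 0.2 to under 0.3, just above the lower limit of the lists, 36.7% (35.5% to 37.9%) of the 6484 sites of 3.5 hpf were listed again. The share was 54.8% in the next bin, 63.2% from 0.4 to under 0.5, and between 65.8% and 71.7% in the bins from 0.5 to under 1. At a frequency of exactly 1, where every read carried the change, it was lower again, 55.1% (51.2% to 59.0%) of 633 sites. The 5.3 hpf list showed the same form, with 44.8% of 6348 sites from 0.2 to under 0.3 already listed at 3.5 hpf and 70.0% from 0.4 to under 0.5. The other changes had this form as well. Of their 3.5 hpf sites, 26.7% from 0.2 to under 0.3 and 59.0% from 0.4 to under 0.5 were listed again. The share was 65.5% from 0.9 to under 1 and 56.0% at exactly 1. Their median frequency at 3.5 hpf was 46.7% for shared sites and 27.8% for sites listed at 3.5 hpf only. A site near the lower limit leaves a list after a small decrease and a site far above it does not, so the order of the bins below 1 follows in part from how the lists were made.

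The 5.3 hpf list held relatively more weakly edited sites. Sites from 0.2 to under 0.3 made up 33.9% (33.3% to 34.6%) of the editing sites at 3.5 hpf and 37.0% (36.3% to 37.7%) at 5.3 hpf. Sites at exactly 0.2 made up 4.42% (4.14% to 4.72%) and 7.22% (6.85% to 7.62%). Sites at 0.5 or more made up 34.2% (33.6% to 34.9%) and 31.3% (30.6% to 32.0%). The other changes moved the same way, from 11.4% to 17.3% at exactly 0.2 and from 36.1% to 32.4% at 0.5 or more. The 5.3 hpf library also had fewer reads than the 3.5 hpf library by the study's mapping table, and a site needed at least 10 reads. The part of read number in these shares and in the numbers of sites was not tested.

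**Figure D1:**
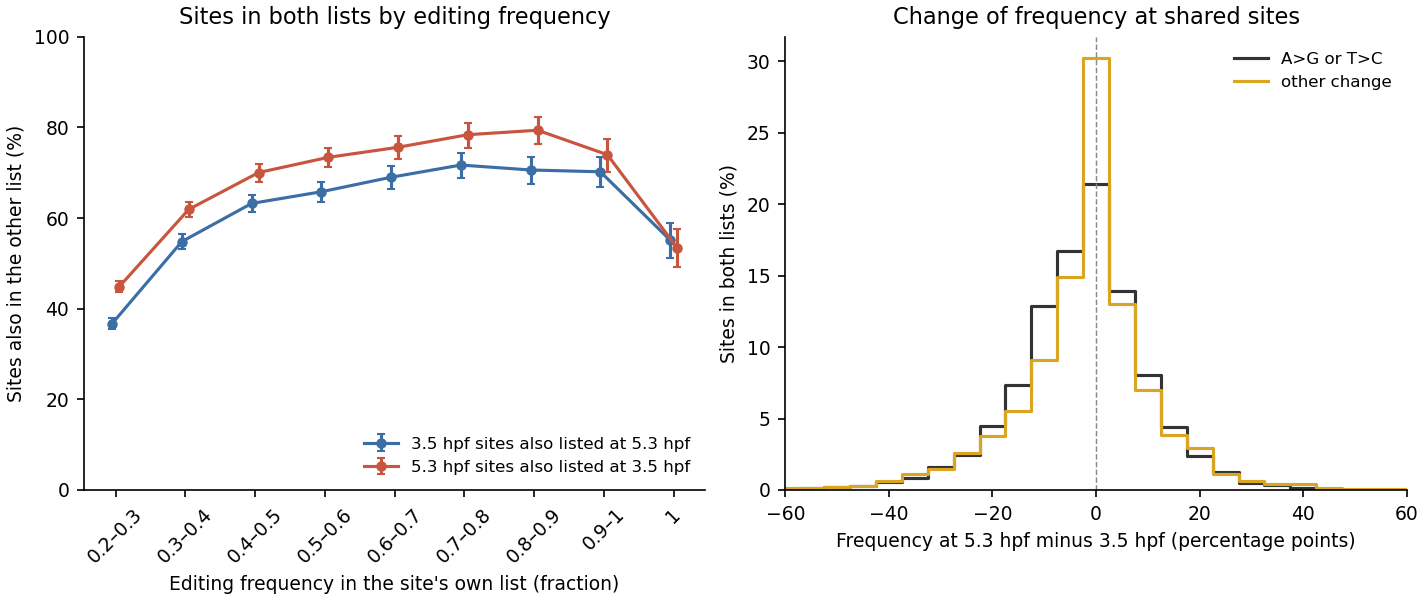
Left, share of A>G or T>C sites of each stage that were also in the other stage's list (y axis, %) by editing frequency in the site's own list (x axis, fraction, with exactly 1 as a bin of its own); bars are 95% Wilson intervals. The shares climb from 36.7% and 44.8% in the lowest bin and drop again at a frequency of 1. Right, difference in frequency between 5.3 hpf and 3.5 hpf (x axis, percentage points, in steps of 5) at sites in both lists (y axis, %). The A>G or T>C sites lean below 0, with a median of -1.90. The other changes have a median of 0, with 49.1% lower and 38.1% higher.

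As with the other changes described below, A>G or T>C sites in both lists had on balance a slightly lower frequency at 5.3 hpf. The median difference, 5.3 hpf minus 3.5 hpf, was -1.90 percentage points, with quartiles of -9.51 and 4.44. The frequency was lower at 5917 (57.3%) of the shared sites, higher at 4133 (40.0%) and equal at 276. It was lower by at least 10 points at 2474 sites (24%) and higher by at least 10 points at 1289 sites (12.5%). By the mean of both frequencies, the median difference was -0.72 points from 0.2 to under 0.3 and -3.42 points from 0.4 to under 0.5. It was -4.04 points from 0.6 to under 0.7 and -2.05 points from 0.9 to under 1. Frequencies lie between 0.2 and 1, so a mean near either limit allows only small differences. The smaller medians there follow in part from this. Over the 2612 shared sites with another change the median was 0 points, but more of them were lower (49.1%) than higher (38.1%) as well, and 20.3% were lower and 12.6% higher by at least 10 points. The 14199 A>G or T>C sites in both the 1.5 hpf and the 3.5 hpf list had a median difference of 0 points too, with 46.6% lower and 49.7% higher at 3.5 hpf. Of the 2612 shared sites with another change, 303 had a frequency of 1 at both 3.5 hpf and 5.3 hpf, against 169 of the 10326 A>G or T>C sites. Such ties pull a median difference towards 0, so the medians of the 2 kinds are not directly comparable. In the 4 bins named above, the other changes had median differences of -0.52, 1.55, -4.46 and -2.72 points in the same order. From 0.8 to under 0.9 their median was -10.9 points, against -3.02 points for A>G or T>C sites.

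ADARs edit many adenosines of one double-stranded stretch, so editing sites form clusters along a transcript. A cluster was taken here as a run of sites of the same change in which neighbours were at most 100 bp apart, and a lone site as a cluster of 1. Runs of 2 or more editing sites were nearly equal in number, 2486 at 3.5 hpf and 2473 at 5.3 hpf, but there were 1887 and 2759 lone sites, and the large clusters were fewer at the later stage. Clusters of at least 10 sites numbered 495 at 3.5 hpf and 387 at 5.3 hpf and held 47.6% (46.9% to 48.3%) and 37.5% (36.8% to 38.2%) of the sites. Clusters of at least 20 sites held 23.0% (22.5% to 23.6%) and 14.5% (14.0% to 15%). Single sites made up 9.88% (9.46% to 10.3%) at 3.5 hpf and 16.1% (15.5% to 16.6%) at 5.3 hpf. Lone sites of the other changes were also more numerous at the later stage, 4618 at 3.5 hpf and 7068 at 5.3 hpf. They made up 78.7% and 81.2% of the sites with another change. The largest cluster had 107 sites at 3.5 hpf and 71 at 5.3 hpf. The clusters of at least 10 sites were of the same extent at both stages, with a median span of 179 bp and 180 bp. No cluster of another change had more than 5 sites at either stage. The part of the lower read number at 5.3 hpf in these cluster sizes was not tested.

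Sites in large clusters were shared more often than lone sites. Of the single sites of 3.5 hpf, 42.6% (40.4% to 44.9%) were listed at 5.3 hpf. The share was 45.5% in clusters of 2 to 4 sites, 51.4% in those of 5 to 9, 60.3% in those of 10 to 19 and 62.0% (60.6% to 63.4%) in those of 20 or more. In the other direction the range was wider. Of the single sites of 5.3 hpf, 32.8% (31.0% to 34.5%) had been listed at 3.5 hpf, and of those in clusters of 20 or more, 80.5% (78.9% to 82.1%). Counted by run of at least 2 sites, at least 1 site was shared in 71.0% (69.1% to 72.7%) of the runs of 3.5 hpf and in 69.8% (68.0% to 71.6%) of those of 5.3 hpf. With lone sites counted as clusters the shares were 58.7% (57.3% to 60.2%) of 4373 and 50.3% (48.9% to 51.6%) of 5232. By size, the 3.5 hpf share was 60.6% of the clusters of 2 to 4 sites, 76.2% of those of 5 to 9, 89.2% of those of 10 to 19 and 95.1% (90.2% to 97.6%) of those of 20 or more. A larger cluster has more sites of which 1 can be shared. Of the 3.5 hpf sites with another change, 43.9% of the single ones and 47.0% of those in clusters of 2 to 4 were listed again. In these size classes the shares of editing sites, 42.6% and 45.5%, were thus no higher than the background. In the other direction the background shares were 28.6% and 36.0%, below the 32.8% and 49.0% of editing sites of 5.3 hpf.

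**Figure D2:**
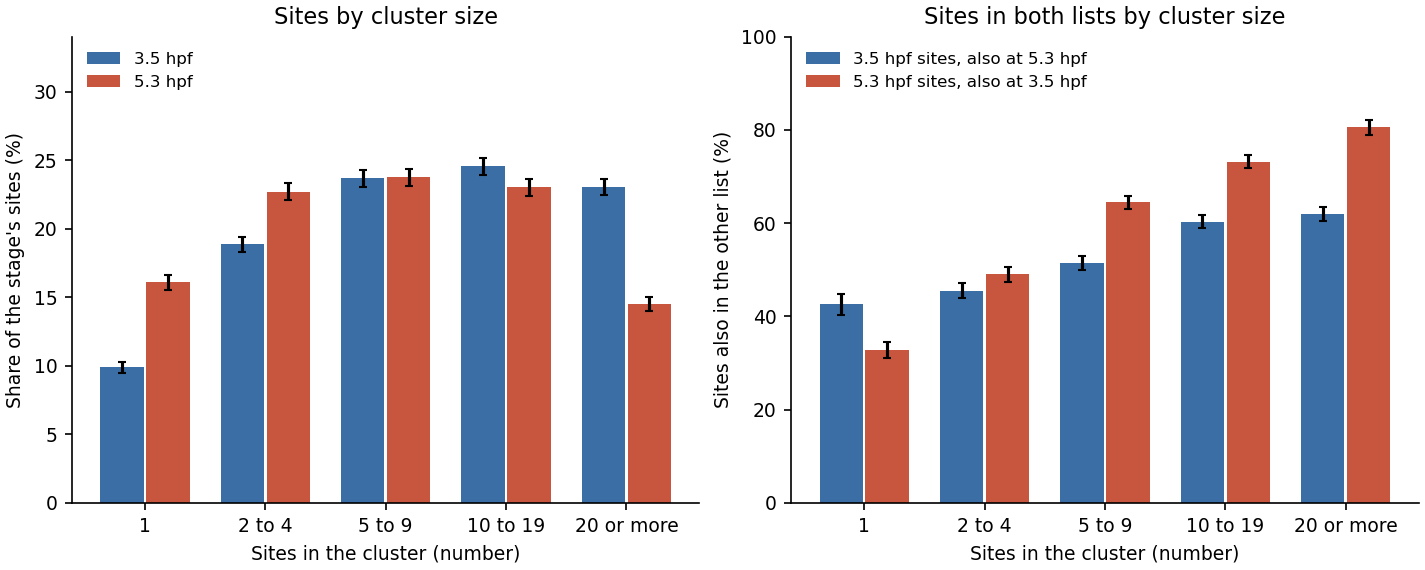
Left, share of each stage's A>G or T>C sites (y axis, %) by the number of sites in their cluster (x axis). Right, share of the sites in each size class that were also in the other list (y axis, %). Bars are shares with 95% Wilson intervals; at 5.3 hpf single sites were 16.1% of the list against 9.88% at 3.5 hpf, and clusters of 20 or more held 14.5% against 23.0%.

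Large clusters were for the most part shared in part, neither whole nor not at all. Of the 495 clusters of at least 10 sites at 3.5 hpf, 38 had all their sites listed at 5.3 hpf, 308 had 50% or more but not all, 104 had some but under 50%, and 45 had none. The median share of a cluster listed again was 69.2%. Within the large clusters that shared at least 1 site, the 5558 shared sites had a median frequency of 47.6% at 3.5 hpf, and the 2887 others 30%. Single sites of 3.5 hpf had a median frequency of 30% and sites in clusters of 20 or more 41.5%, so cluster size and frequency went together in these lists.

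A few dense clusters were in 1 list alone. Of the clusters of at least 10 sites, 45 of 495 at 3.5 hpf and 36 of 387 at 5.3 hpf had no site in the other list. How many clusters had at least 15 sites in all was not counted. Of the clusters of at least 15 sites, 16 at 3.5 hpf and 11 at 5.3 hpf had no site in the other list. None of these had any site of the other list within 100 bp. At 3.5 hpf the largest was a run of 26 A>G sites at chr23:40153339-40153768, with a median frequency of 62.3%, outside the 3′-UTR windows described next. A run of 18 A>G sites lay close by at chr23:40151485-40151608, with a median of 48.3%. Of the 16 clusters, 5 lay in the windows of ppp2r2d, mier1b, pfkfb2a, zgc:153733 and pmepa1. At 5.3 hpf the largest was a run of 29 T>C sites at chr3:7092404-7092707, with a median of 38.5%, again outside the windows. Of the 11 clusters, 2 lay in windows, those of snai1b and zgc:113209.

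To relate the sites to genes, the 5000 bp windows at the 3′ end of genes were used that the study listed for 3.5 hpf or 5.3 hpf. The study chose these 708 windows on the same lists, for holding editing sites, so their counts are no independent sample of genes, and 30 of them overlapped another window. Sites of both strands were counted in a window. In all, 548 windows held sites at both stages, 92 at 3.5 hpf only and 68 at 5.3 hpf only. Fewer sites were listed at 5.3 hpf in 431 windows, more in 195 and the same number in 82. Of the 305 windows with at least 10 sites at 1 of the stages, 72 (23.6%) held at least 2-fold fewer sites at 5.3 hpf and 17 (5.57%) at least 2-fold more. Of the first, 10 held none at 5.3 hpf, and of the second, 10 held none at 3.5 hpf. Sites of 3.5 hpf inside the windows were listed again more often, 58.1% (57.1% to 59.2%) against 50.7% (49.7% to 51.6%) outside them. Sites of 5.3 hpf inside the windows had already been listed at 3.5 hpf in 73.9% (72.9% to 75.0%), against 51.2% (50.2% to 52.1%) outside. Because the windows were chosen on these lists, the shares inside and outside them are not independent of that choice. The same shares for the other changes were not computed. A>G or T>C sites in the windows numbered 8662 at 3.5 hpf and 6809 at 5.3 hpf. Sites of other changes in the windows numbered 645 at 3.5 hpf and 557 at 5.3 hpf. The background was thus lower at 5.3 hpf inside the windows too, although over the whole lists it was 1.48 times as high.

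**Figure D3:**
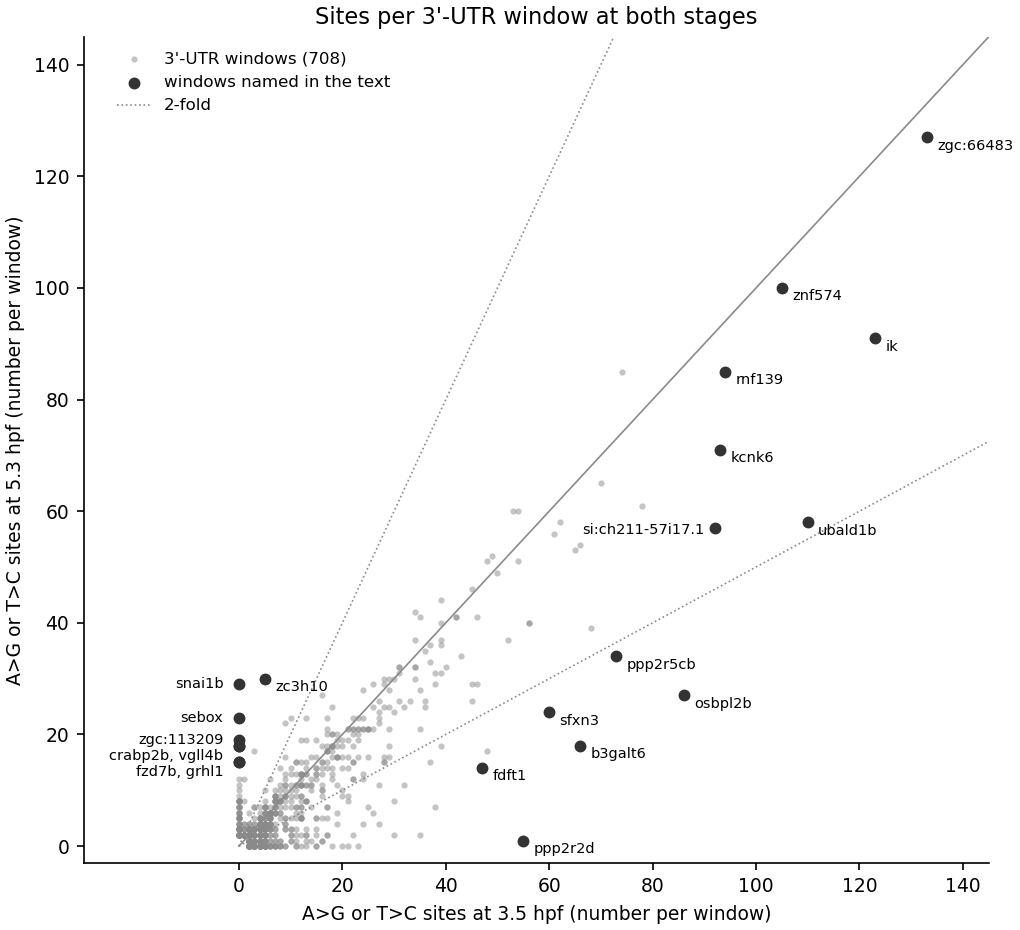
Number of A>G or T>C sites in each of the 708 3′-UTR windows at 3.5 hpf (x axis) and at 5.3 hpf (y axis), 1 point for each window. The solid line marks equal numbers and the dotted lines 2-fold differences; the 305 windows with at least 10 sites include 72 on or under the lower dotted line, such as osbpl2b (86 and 27), and 17 on or above the upper one, such as snai1b (0 and 29).

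The most heavily edited windows differed in how many of their sites were the same at both stages. The window of zgc:66483 at chr21:2285344-2290343 held 133 sites at 3.5 hpf and 127 at 5.3 hpf, of which 112 were the same. Their median frequency was 52.7% and 50.0%, with 46 sites higher and 64 lower at 5.3 hpf. At position 2289202 of chromosome 21 every read was edited at both stages, whereas the T>C site at 2289302 had 75.8% at 3.5 hpf and 43.8% at 5.3 hpf, the largest decrease in this window. The window of znf574, which encodes a zinc finger protein, held 105 and 100 sites at chr16:11453826-11458825, with 84 shared. Here 64 of the shared sites were lower and 20 higher at 5.3 hpf, and their median was 49.6% and 43.0%. In the window of rnf139, a ubiquitin ligase of the endoplasmic reticulum, at chr19:173611-178610, the numbers were alike, 94 and 85, but only 47 sites were shared. The window of kcnk6, a potassium channel subunit, at chr18:46171226-46176225, held 93 and 71 sites with 68 shared, of which 57 were lower and 11 higher at 5.3 hpf, with a median difference of -5.54 points. The windows of rnf139 and kcnk6 each overlapped another listed window, so their sites can lie in the window of another gene as well.

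The window of ik, a splicing factor, had the second highest number of sites, 123 and 91 with 61 shared. The gene lies on the plus strand, on which edited sites are A>G, but at 3.5 hpf 0 of the 123 sites in its window at chr21:44041614-44046613 were A>G, and at 5.3 hpf 13 of the 91 were. The other sites were T>C, the form of a transcript from the opposite strand, so they cannot be assigned to ik itself. Shared sites in this window had a median of 40.0% at 3.5 hpf and 38.9% at 5.3 hpf, with 30 higher and 30 lower, in contrast to znf574 and kcnk6.

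Among the windows with the largest decreases in number, sites could be absent from one part of the 3′ end and present in another. The window of osbpl2b, which encodes an oxysterol-binding protein, held 86 sites at 3.5 hpf and 27 at 5.3 hpf at chr23:9616341-9621340, and 23 of the 27 had been listed at 3.5 hpf. It had held 98 sites at 1.5 hpf. The shared sites did not differ in one direction, with 11 higher and 12 lower and a median difference of -0.54 points. The first site of the window, A>G at position 9617033, had 92.4% at 3.5 hpf and 100% at 5.3 hpf, whereas the A>G site at 9617082, 49 bp further on, had 100% at 3.5 hpf and was not listed at 5.3 hpf. Sites of high frequency were thus among those absent at 5.3 hpf in this window.

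The window of ubald1b, a protein with a ubiquitin-associated-like domain, showed another pattern, since both the number and the frequency were lower. It held 110 sites at 3.5 hpf and 58 at 5.3 hpf at chr3:54577990-54582989, after 114 at 1.5 hpf, and 54 were shared. Of these, 51 were lower and 3 higher at 5.3 hpf, 32 by at least 10 points lower and 0 by at least 10 points higher. Their median frequency was 50.0% and 31.0%, with a median difference of -13.8 points. The largest decrease was at position 54582430 (T>C), with 88.0% at 3.5 hpf and 32.1% at 5.3 hpf. The site at 54581935 was an exception, with 88.2% and 91.9%.

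**Figure D4:**
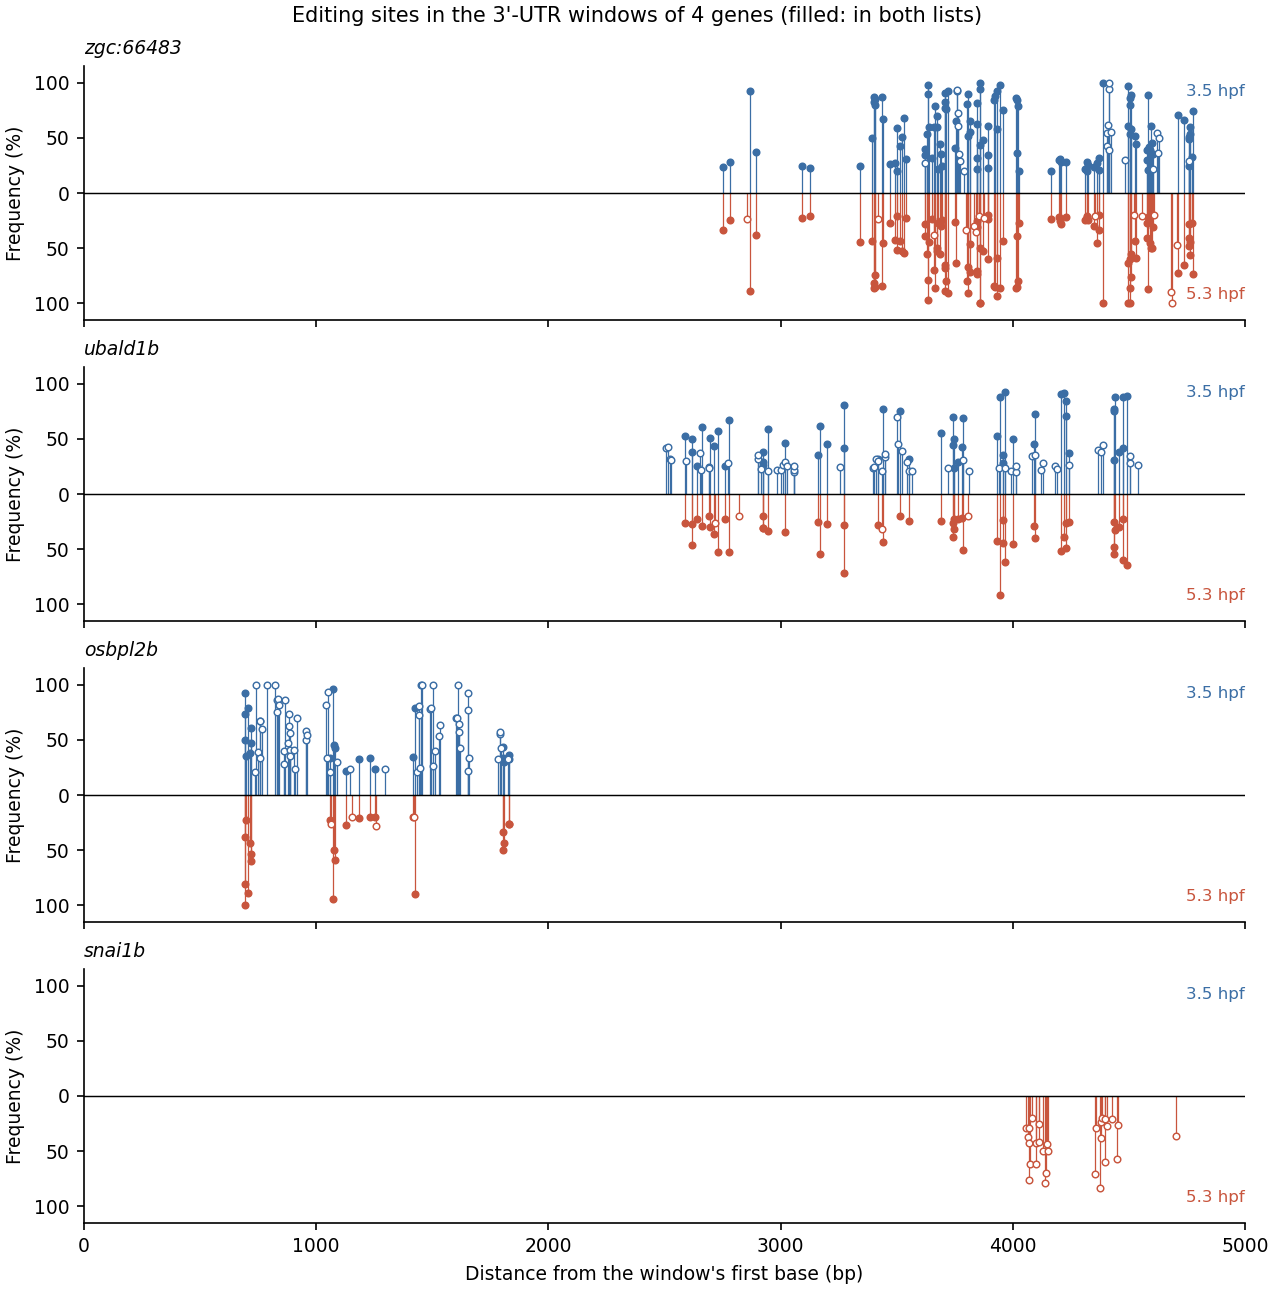
Editing frequency (y axis, %; 3.5 hpf upwards, 5.3 hpf downwards) of each A>G or T>C site against its distance from the first base of the 3′-UTR window (x axis, bp) in the windows of zgc:66483, ubald1b, osbpl2b and snai1b. Filled points are sites in both lists and open points sites in 1 list: 112 sites were filled in zgc:66483, 54 in ubald1b and 23 in osbpl2b, and all 29 sites of snai1b were open and at 5.3 hpf. The first base is that of the lowest coordinate. The genes zgc:66483, ubald1b and snai1b lie on the minus strand, so for them the axis runs against the transcript.

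Windows of 2 regulatory subunits of protein phosphatase 2A were among the 8 with the largest decreases. The window of ppp2r2d at chr12:40554893-40559892 held 55 sites at 3.5 hpf, from 20.0% to 100%, and 59 at 1.5 hpf. At 5.3 hpf it held 1 site, at 23.1%, that was not among the 55. The window of ppp2r5cb at chr20:54109486-54114485 held 73 and 34 sites with 26 shared, of which 17 were lower and 9 higher, with a median difference of -6.23 points. Its site at position 54114320 had 91.8% at 3.5 hpf and 100% at 5.3 hpf.

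The remaining windows among the 8 with the largest decreases were those of b3galt6, sfxn3, fdft1 and si:ch211-57i17.1. The window of b3galt6, a galactosyltransferase that builds the linker of glycosaminoglycans to proteins, held 66 sites at 3.5 hpf and 18 at 5.3 hpf at chr11:2619058-2624057, with 15 shared and a median difference of -8.33 points. The window of sfxn3, a mitochondrial carrier of the sideroflexin family, held 60 and 24 sites at chr13:18541914-18546913, with 21 shared and a median of 42.4% and 26.3% in them. That of fdft1, the squalene synthase of sterol synthesis, held 47 and 14 at chr20:53097115-53102114. Of its 13 shared sites, 11 were lower and 1 higher at 5.3 hpf, with a median of 58.8% and 40.0%. The uncharacterized si:ch211-57i17.1 held 92 and 57 sites at chr20:46854973-46859972, with 49 shared, 29 of them lower and 17 higher. All 8 windows had held between 53 and 114 sites at 1.5 hpf.

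As many as 10 windows of at least 10 sites at 3.5 hpf were without any site at 5.3 hpf, and all 10 had held sites at 1.5 hpf. The largest were those of mier1b, a chromatin regulator, with 23 sites at a median of 41.0%, pfkfb2a, an enzyme that sets the rate of glycolysis, with 21 sites at 36.4%, and zgc:153733 with 20 sites at 50.0%. The window of mier1b had held 24 sites at 1.5 hpf. The window of ocrl, an inositol phosphatase of membrane traffic, held 18 sites and that of atp7a, a copper transporter, 12. A window is without sites when the transcript is absent or too rare to reach the least number of reads, as well as when it is not edited, and these cannot be told apart here.

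The 8 windows with the largest gains are given next. The window of snai1b, a transcriptional repressor of the Snail family that acts in cell movements of gastrulation, held no site at 1.5 hpf or 3.5 hpf and 29 at 5.3 hpf at chr23:2562203-2567202. Its sites covered 650 bp from position 2566259 to 2566908, with frequencies from 20.0% to 83.3% and a median of 41.7%, and 28 of the 29 were T>C, the form of the gene's own strand. The highest was at 2566578. The window of sebox, a homeobox transcription factor, held 0 and 23 sites at chr5:66700255-66705254, with a median of 33.3% and a maximum of 70.0%. That of grhl1, a grainyhead-like factor of the epidermis, held 0 and 15 sites at chr17:32433687-32438686, with a median of 36.4%, all of them T>C on the strand of the gene. That of fzd7b, a Frizzled receptor of Wnt signals, held 0 and 15 at chr6:9464007-9469006, with a median of 27.3%.

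The window of crabp2b, which binds retinoic acid in the cell, held 0 and 18 sites at chr19:9058138-9063137, with a median of 34.5%. In this window 4 sites with another change were listed at 5.3 hpf as well, and 0 at 3.5 hpf. The window of vgll4b, a cofactor of TEAD transcription factors, held 0 and 18 sites at chr11:784252-789251, of which 11 were on the strand of the gene, after 6 sites at 1.5 hpf. That of zgc:113209 held 0 and 19 sites at chr4:74841184-74846183, after 2 at 1.5 hpf. The window of zc3h10, a CCCH zinc finger protein, held 5 sites at 3.5 hpf and 30 at 5.3 hpf at chr6:52253238-52258237, with 3 shared. Its A>G site at position 52254078 was edited in every read at 5.3 hpf and not listed at 3.5 hpf, and the site at 52254097 had 90.9% at 3.5 hpf and 68.2% at 5.3 hpf. Of the 10 windows with at least 10 sites at 5.3 hpf and none at 3.5 hpf, 8 had none at 1.5 hpf either. Apart from the 7 named here, they were those of cyp2y3 with 12 sites, rpl27a, a protein of the large ribosomal subunit, with 11, and pkd2, a calcium-permeable channel of cilia, with 10.

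Frequency could be compared in the 174 windows with at least 10 sites in both lists. The median of the differences over a window's shared sites was lower at 5.3 hpf in 119 windows, higher in 52 and 0 in 3. Over the windows it had a median of -2.27 points and ranged from -20.9 to 9.92 points. Over all shared A>G or T>C sites the median was -1.90 points, with 57.3% lower and 40.0% higher. Of the shared sites with another change, 49.1% were lower and 38.1% higher. The largest decrease was in the window of csgalnact2, an enzyme that starts chondroitin sulfate chains, at chr13:25435773-25440772. Its 10 shared sites had a median of 61.3% at 3.5 hpf and 34.7% at 5.3 hpf, and 9 of them were lower. The site at position 25439055 had 71.4% and 32.4%. The window of bcap29, a protein of the endoplasmic reticulum, at chr4:2735538-2740537, came second, with 45 and 29 sites, 24 shared and 23 of these lower. Their median was 49.6% and 29.7%, and 19 of them were lower by at least 10 points. The windows of fdft1 and ubald1b followed, with median differences of -14.5 and -13.8 points.

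Higher frequencies at 5.3 hpf were smaller in size. The window of dag1, which encodes dystroglycan, the receptor that ties cells to the basement membrane, held 12 and 19 sites at chr22:33237894-33242893. Its 10 shared sites had a median of 34.1% at 3.5 hpf and 47.7% at 5.3 hpf, with 8 higher, 2 lower and a median difference of 9.92 points. Of 3 adjacent A>G sites, that at position 33242571 had 45.8% at 3.5 hpf and 80.0% at 5.3 hpf, that at 33242572 had 87.5% and 90.9%, and that at 33242573 had 70.8% and 80.0%. The window of ehd1a, a protein of endocytic recycling, had 12 shared sites at chr14:46443889-46448888, 9 higher and 3 lower, with a median difference of 7.62 points. That of twsg1a, a regulator of bone morphogenetic protein signals in dorsoventral patterning, held 54 and 51 sites at chr2:55097057-55102056. Of its 27 shared sites, 19 were higher and 8 lower, with a median of 36.0% and 42.9%. The site at 55098699 had 52.2% at 3.5 hpf and was edited in every read at 5.3 hpf. The window of ankle2, which acts in the rebuilding of the nuclear envelope after mitosis, had 21 shared sites at chr5:18434770-18439769, 14 higher and 6 lower, with a median difference of 5.95 points.

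Gene groups were read beside all windows, of which 23.6% held at least 2-fold fewer and 5.57% at least 2-fold more sites. The ubiquitin system, whose ligases mark proteins for degradation, had the lowest ratio of the 7 groups. Its 39 windows held 539 sites at 3.5 hpf and 376 at 5.3 hpf, a ratio of 0.698, against 0.789 over all windows. Of its 19 windows with at least 10 sites, 7 held at least 2-fold fewer and 0 at least 2-fold more. They were fbxl2 with 30 and 2 sites, trim62 with 30 and 8, traf7 with 20 and 10, trim24 with 17 and 2, wsb1 with 17 and 7, wsb2 with 15 and 3, and kbtbd8 with 10 and 5. The windows of rnf114 with 27 and 26 sites and of asb7 with 27 and 24 were close to equal. Solute carriers came next, with 199 and 154 sites (0.774), among them slc25a42 with 27 and 4 sites, none of them shared, and slc25a28, a mitochondrial iron carrier, with 34 and 37.

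Transcription factors held nearly equal totals, 408 and 410 sites in 35 windows, but 19 of these windows held fewer sites at 5.3 hpf and 13 more, with a median change of -1 site, as over all windows. Of 15 windows with at least 10 sites, 2 held at least 2-fold fewer, those of rarab, a retinoic acid receptor, with 17 and 5 sites and of zbtb1 with 10 and 3. The 3 with at least 2-fold more were snai1b, sebox and grhl1, each with no site at 3.5 hpf, and with 29, 23 and 15 sites at 5.3 hpf. Patterning and signalling genes held 460 and 399 sites in 36 windows (0.867), with 3 of 13 at least 2-fold fewer and 2 at least 2-fold more. The window of pmepa1, an inhibitor of transforming growth factor signals, held 35 and 2 sites. That of igf1rb, a receptor of insulin-like growth factor, held 45 and 46 sites with 34 shared, and that of igf2r 34 and 30. Genes of more than 1 group, such as snai1b and rarab, were counted in each.

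The ratios of the housekeeping groups lay between those of solute carriers and transcription factors. Membrane traffic genes held 539 and 469 sites in 53 windows (0.870). Of 22 windows with at least 10 sites, 4 held at least 2-fold fewer, such as that of tmed1b, a cargo receptor of early secretion, with 37 and 15. At least 2-fold more sites were in 3, such as that of chmp1a, a component of the ESCRT-III membrane-cutting complex, with 1 and 12. The windows of stx5a, a syntaxin of the Golgi, with 31 and 31 sites and 28 shared, and of vps25, an ESCRT-II protein, with 26 and 29 and 25 shared, were nearly the same at both stages. The windows of rab33b and rab33ba held the same 22 and 12 sites, since they overlap, and were both counted. Genes of RNA processing and translation held 460 and 396 sites in 34 windows (0.861), with 1 of 14 at least 2-fold fewer (carhsp1, 21 and 9) and 2 at least 2-fold more. These were ppil4 with 9 and 22 sites and rpl27a. The ik window alone held 123 and 91 of the group's sites, most of which cannot be assigned to ik, as described above. The window of eif4e1b, the cap-binding protein of oocytes and early embryos, held 19 and 20 sites with 17 shared and medians of 53.8% and 56.6%. Cell cycle genes held 278 and 236 sites in 17 windows (0.849), and none of their 9 windows with at least 10 sites differed 2-fold. That of cdk10 held 78 and 61 sites with 51 shared, and that of ccnk, cyclin K, 29 and 28 with 22 shared.

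Along the genome, A>G or T>C sites were fewer at 5.3 hpf than at 3.5 hpf on 20 of the 25 chromosomes and more numerous on 5. The ratio of the number at 5.3 hpf to that at 3.5 hpf had a median of 0.895 over chromosomes. It was lowest on chromosome 12, with 634 and 495 sites (0.781), and highest on chromosome 22, with 525 and 642 (1.22). The others with more sites at 5.3 hpf were chromosome 4 with 470 and 506, chromosome 10 with 531 and 572, chromosome 24 with 332 and 346 and chromosome 25 with 368 and 409. Outside the listed windows 10 chromosomes held more sites at 5.3 hpf, and among clustered sites 3 did. The background was higher nearly throughout, with more sites of other changes at 5.3 hpf on 24 of the 25 chromosomes, a median ratio of 1.41 and 0.983 on chromosome 11.

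**Figure D5:**
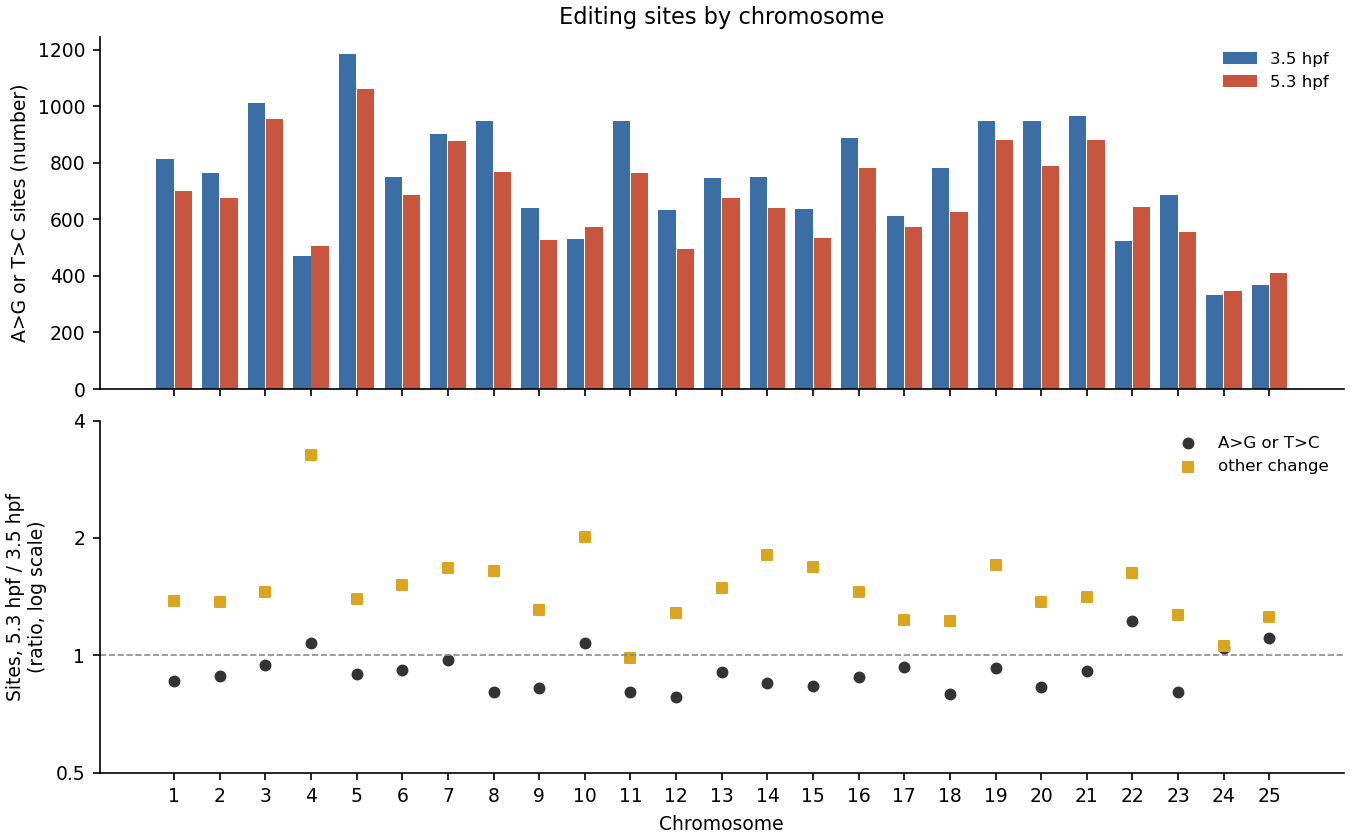
Top, number of A>G or T>C sites (y axis) on each chromosome (x axis) at 3.5 hpf and at 5.3 hpf. Bottom, ratio of the numbers (5.3 hpf to 3.5 hpf, log scale) for A>G or T>C sites and for sites with another change; the first runs from 0.781 on chromosome 12 to 1.22 on chromosome 22, and the second reaches 3.27 on chromosome 4.

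Chromosome 4 was at the end of the range in several measures. The share of its 3.5 hpf sites listed again at 5.3 hpf was 43.0% (38.6% to 47.5%), the lowest of the chromosomes. The next were 46.7% (43.0% to 50.5%) on chromosome 23 and 46.9% (43.8% to 50.1%) on chromosome 20, with overlapping intervals. The median over chromosomes was 54.7% and the highest share 61.7% (56.6% to 66.5%) on chromosome 25. Its 202 shared sites had the largest decrease in frequency, with a median difference of -6.97 points, followed by chromosome 13 with -4.65. Of the 202, 24 lay in the window of bcap29, where 23 were lower at 5.3 hpf. Sites with another change numbered 188 at 3.5 hpf and 614 at 5.3 hpf there, a ratio of 3.27. The ratio for A>G or T>C sites there was 1.08 (0.950 to 1.22). Among clustered sites it was 0.810 (0.701 to 0.937), in the opposite direction, and outside the listed windows 1.36 (1.17 to 1.59). These intervals were taken from Wilson intervals on the summed numbers of sites. They cover counting error only, treat sites as independent and are no test between the stages. The median difference of shared sites was below 0 on 23 of the 25 chromosomes, the exceptions being chromosome 12 with 0.44 and chromosome 17 with 0.60 points.

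Bins of 1 Mb placed the largest differences. The bin from 53 Mb on chromosome 20 held 169 sites at 3.5 hpf and 48 at 5.3 hpf. It contains the fdft1 window and, outside any window, the largest cluster of the 3.5 hpf list, 107 T>C sites at chr20:53348595-53349755 with a median of 40.0%, of which 21 were listed again. The next decreases were from 292 to 227 in the bin from 2 Mb on chromosome 11, which contains b3galt6, from 86 to 27 in the bin of osbpl2b and from 147 to 88 in the bin from 1 Mb on chromosome 6. The bins with the largest gains were that from 2 Mb on chromosome 22, with 24 sites at 3.5 hpf, 89 at 5.3 hpf and 11 shared, and that from 7 Mb on chromosome 3, with 44, 97 and 30 shared. In the first, sites with another change numbered 50 and 70. The bin from 2 Mb on chromosome 20 held 28 and 74 sites, and that of snai1b, from 2 Mb on chromosome 23, 0 and 37.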

How the data were processed

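The lists were used as the authors deposited them, as a fraction at each site (reads with the new base over all RNA reads), without coverage. Per the labels and methods, reads were aligned to GRCz10 with STAR 2.7.7a, processed with SAMtools 1.11, and mismatches with both parents' DNA were called with REDiscover, with a mapping quality of at least 15, a base quality of at least 20, at least 10 reads and a frequency of at least 20%. The library kit marks strand by the labels, but the study's methods name a TruSeq RNA kit for the embryos of this comparison. The study called the RNA sequencing unstranded, and the lists hold no strand. The files were matched to the stages by the stage in their names. Tables of the authors' expression comparisons at other stages were not used.

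Sites, clusters, windows and chromosomes were counted in Python 3.11.15 with numpy 2.4.6, pandas 2.3.3 and matplotlib 3.10.9, and the functions were tested on simulated data. No test was run, because each stage had 1 library. Positions are 1-based. Window coordinates came from the study's list of edited 3′-UTRs. The genes named were the 6 windows with the most sites, the 8 largest decreases and the 8 largest gains in number, the 4 largest decreases and the 4 largest gains in median frequency over at least 10 shared sites, and members of the gene groups. Sites named within a window were those with the highest frequency or the largest difference, and with their neighbours were chosen after their values were seen. The comparison, windows and gene groups were chosen with earlier results of these data known. No sequence is shown, because no GRCz10 genome was used here.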

Additional observations from a re-analysis of the deposited data

How the results depend on the processing

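No paired analysis was possible because each stage had 1 library. The alternatives that require a strand column to agree between the lists were not run, because the lists hold none. Restricted to sites of at least 0.3 in their own list, the share of 3.5 hpf sites listed again was 63.0% and that of 5.3 hpf sites already listed was 69.3%. Among clustered sites they were 55.3% and 65.5%. Among sites with another site of the other list within 50 bp, an alternative chosen after seeing the data, they were 69.9% and 80.9%. The share of sites in clusters of at least 10 was 33.1% at 3.5 hpf and 24.3% at 5.3 hpf with gaps of 50 bp, and 69.9% and 58.6% with 500 bp, so the order of the stages held with each gap. Without lone sites, an alternative also chosen after seeing the data, 71.0% of the 3.5 hpf clusters shared at least 1 site. The share of sites from 0.2 to under 0.3 was 35.1% and 38.2% without sites at a frequency of 1, and 30.7% and 32.7% in clusters of at least 5, again lower at 3.5 hpf. The median difference of shared sites was -2.78 points for sites of at least 0.3 at either stage and -2.28 points in clusters of at least 5. Of 471 windows with at least 5 sites, 129 held at least 2-fold fewer and 41 at least 2-fold more. Of 155 windows with at least 20 sites, it was 28 and 5, beside 72 and 17 of 305 in the main count. The ratio of the number of sites was 0.836 for clustered sites and 0.990 outside the listed windows, so that outside them the numbers of the stages were nearly equal. The other 7 alternatives of these results stayed within the main interval or within 1.5 times the main count. Coverage was not in the lists: a site absent from a list may be unedited, below 20% or below 10 reads.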

Other observations

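The 3 largest clusters of the 5.3 hpf list shared most of their sites with the 3.5 hpf list. The first was that of zgc:66483, with 64 of 71 sites shared, and the next were outside the listed 3′-UTR windows. A run of 65 T>C sites lay at chr5:2034077-2034770, with a median frequency of 60% and 62 sites also listed at 3.5 hpf. A run of 61 T>C sites lay at chr11:45091508-45092317, with a median of 39.1% and 56 sites also listed at 3.5 hpf. The largest cluster of 3.5 hpf, on chromosome 20, had 21 of its 107 sites listed at 5.3 hpf.

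On unplaced scaffolds the editing sites numbered 321 at 3.5 hpf and 236 at 5.3 hpf, a ratio of 0.735 against a lowest value of 0.781 among the chromosomes. Of these sites 38.6% (95% Wilson interval 33.5% to 44.1%) were listed again, and the median difference of the shared ones was 0 points. On the mitochondrial genome there were 0 at 3.5 hpf and 1 at 5.3 hpf, at a frequency of 21.6%.

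At a frequency of 0.9 or more there were 7.16% of the editing sites of 3.5 hpf and 6.34% of those of 5.3 hpf. The corresponding shares of the other changes were 21.7% and 15.6%.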
